A study of Mus musculus with 38 samples.

Results

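Glutamate receptor subunits and the scaffold proteins that hold them at the synapse were measured in the brains of C57BL/6J mice given haloperidol, an antipsychotic and D2 dopamine receptor antagonist. The genes were taken from a list of 36 with 4 AMPA, 5 kainate, 6 NMDA, 1 delta and 6 metabotropic receptor subunits and 14 scaffolds. Of these, 34 had an array probe annotated with that gene symbol alone, out of 18820 genes in all, and all 34 were bright enough to be tested in brain. Grin1 and Homer3 had no such probe and were not analysed here. The groups were whole brains of 10 mice on haloperidol, released from pellets over 30 days, and of 10 mice on placebo, with livers of 9 haloperidol and 9 placebo mice beside them. All came from a colony bred from purchased C57BL/6J founders. Dose, sex and age are not given in the labels. Levels are on a log2 scale, as the authors normalized them, changes are haloperidol minus placebo on that scale, and the number of arrays limits their precision. In whole tissue, fewer cells of a type and less RNA per cell cannot be told apart.

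Glutamate is the main excitatory transmitter of the brain. AMPA, kainate and NMDA receptors are ion channels built of 4 subunits each, of which AMPA receptors carry most of the fast current and NMDA receptors admit calcium when the cell is depolarised. Metabotropic receptors act through G proteins, and many of them sit on the presynaptic side, where they limit release. Beneath the membrane, proteins of the Dlg family bind the tails of receptor subunits, Dlgap proteins bind Dlg, Shank proteins bind Dlgap, and Homer proteins bind Shank and the group I metabotropic receptors. Haloperidol's main target lies on dopamine-receiving neurons, many of which also receive dense glutamate input from cortex.

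Many receptor subunit genes were lower in haloperidol brains, and most scaffold genes did not pass. Of the 34 genes, 14 fell and 0 rose (limma, Benjamini-Hochberg adjusted p under 0.05), which is 41.2% of them, while 15.2% of all 12547 genes tested fell and 15.2% rose, 30.4% in either direction. Among receptor subunits 12 of 21 fell, with a median change of -0.24, and among scaffolds 2 of 13 fell, with a median change of -0.06. The difference between receptors and scaffolds was not tested. The calls depend on the scale. With quantile normalization of the brain arrays 15 of the 34 fell, and with cyclic loess between them 10. Of all 12547 genes tested, 2242 and 1772 fell under these 2 settings. Once each array's own median is taken off, a single gene, Grin2c, still passes as lower. The median change was -0.17 over the 34 genes and -0.02 over all genes tested. Relative to that median gene the 34 genes lay at -0.15, and 30 of them were below it. The changes were small: 33 of the 34 genes differed by less than 20% between the groups, and in 0 of the 34 did the groups separate fully, as they did in 0.104% of all genes tested.

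**Figure D1:**
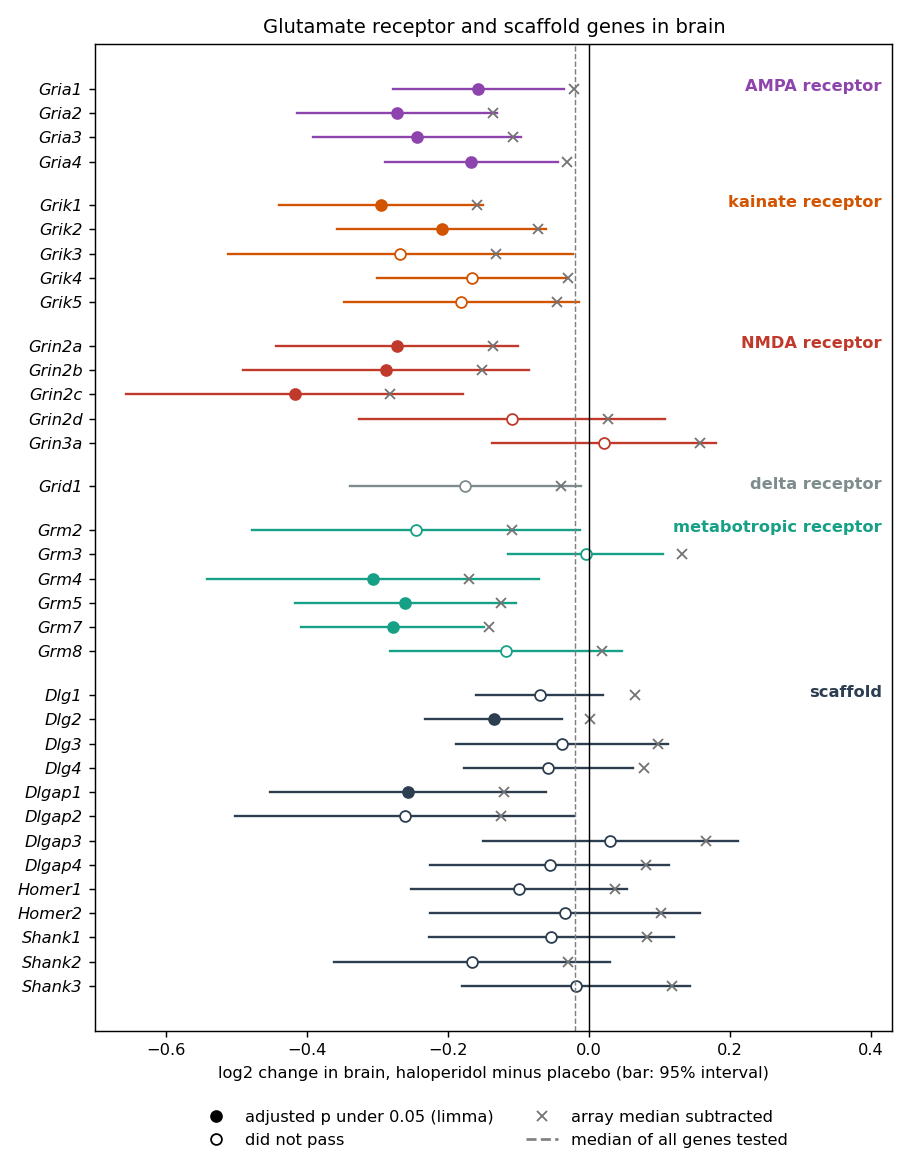
Log2 change in brain, haloperidol minus placebo, for each of the 34 genes, grouped by subfamily. Circles are the changes with their 95% intervals from limma, filled where the adjusted p was under 0.05, crosses are the changes with the array median subtracted, and the dashed line at -0.02 is the median of all 12547 genes tested. The 14 filled circles all lie left of 0, and 12 of them belong to receptor subunits.

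**Figure D2:**
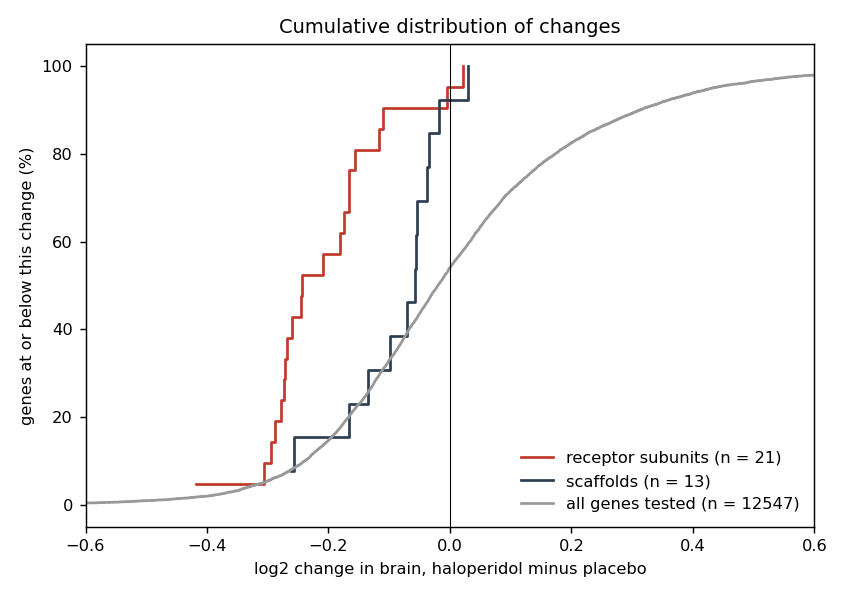
Cumulative share of genes (vertical axis, percent) at or below a given log2 change in brain, haloperidol minus placebo (horizontal axis, shown from -0.6 to 0.6). The curve of the 21 receptor subunits has its median at -0.24, that of the 13 scaffolds at -0.06 and that of all 12547 genes tested at -0.02.

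Promoter windows around annotated starts from RefSeq (build GRCm38.p6) were matched by gene ID for 22 of the 34 genes, with 36 windows. Those of Grm7 and Gria2, which with Grik1 had the smallest p among the 34, and of Grin2c, which had the largest change, are printed here because these genes lead the comparison. Grik1 was not matched, and the first of the 2 windows of Grm7 is given. Capitals mark GC boxes, the letters GGGCGG on either strand, and overlapping matches run together.
Grm7, chr6:110645262-110645561, plus strand: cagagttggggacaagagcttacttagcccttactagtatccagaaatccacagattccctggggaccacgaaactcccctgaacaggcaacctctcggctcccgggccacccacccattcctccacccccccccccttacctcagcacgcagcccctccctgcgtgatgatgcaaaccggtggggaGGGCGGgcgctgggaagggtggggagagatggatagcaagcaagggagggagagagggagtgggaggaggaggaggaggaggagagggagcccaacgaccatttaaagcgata
Gria2, chr3:80802786-80803085, minus strand: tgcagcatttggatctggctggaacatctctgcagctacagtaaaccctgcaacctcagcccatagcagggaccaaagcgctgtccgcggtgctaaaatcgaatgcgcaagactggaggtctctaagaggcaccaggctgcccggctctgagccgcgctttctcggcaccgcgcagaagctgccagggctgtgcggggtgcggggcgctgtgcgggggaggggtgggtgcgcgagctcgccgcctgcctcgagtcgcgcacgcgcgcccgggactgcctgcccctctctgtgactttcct
Grin2c, chr11:115267194-115267493, minus strand: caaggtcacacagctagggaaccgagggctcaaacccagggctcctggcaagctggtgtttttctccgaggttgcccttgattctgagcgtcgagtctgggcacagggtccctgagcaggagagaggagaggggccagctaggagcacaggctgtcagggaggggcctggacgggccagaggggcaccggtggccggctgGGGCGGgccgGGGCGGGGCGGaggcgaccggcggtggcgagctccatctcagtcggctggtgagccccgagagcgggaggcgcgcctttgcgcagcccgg
The window of Grm7 has 61% G and C, that of Gria2 65.7% and that of Grin2c 70%. The letters GGGCGG occur in 44.4% of the 36 windows, against 35.7% of all 32851 promoter windows and 61.5% of those of genes tested in brain. The cAMP response element, TGACGTCA, occurs in 0 of the 36 windows, in 1.79% of all windows and in 2.94% of those of genes tested in brain. The E-box CACGTG occurs in 8.33% of the 36, in 7.15% of all and in 9.65% of those of genes tested in brain. Each was searched on both strands. A match is a run of letters and not a bound site, and the windows of the 14 genes that fell, 11 windows of 7 genes, held the GC box in 27.3%.

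All 4 AMPA receptor genes fell, and their median change was -0.21. Gria2, whose edited protein keeps AMPA receptors closed to calcium, lay at 10.81 to 11.33 in haloperidol brains, against 11.16 to 11.58 in placebo brains, with means of 11.03 ± 0.17 with haloperidol and 11.30 ± 0.13 with placebo (SD over 10 arrays). The groups overlapped, but 7 of 10 haloperidol arrays lay below every placebo array. Its change was -0.27 (SE 0.069, limma adjusted p = 0.00736).

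Gria3, another pore-forming subunit, lay at 10.52, 10.72 and 11.06 in haloperidol brains, against 10.81, 10.97 and 11.23 in placebo brains (lowest, median and highest of 10). Here too 7 haloperidol arrays lay below every placebo array, and the change was -0.24 (SE 0.071, limma adjusted p = 0.0147). Gria4, a subunit of cerebellum, interneurons and brainstem, lay at 10.31, 10.58 and 10.86 in haloperidol brains, against 10.57, 10.72 and 10.95 in placebo brains. The groups overlapped more, with 4 haloperidol arrays below every placebo array and a change of -0.17 (SE 0.059, limma adjusted p = 0.037). Gria1, the subunit inserted during synaptic potentiation, lay at 11.06, 11.27 and 11.49 in haloperidol brains, against 11.34, 11.45 and 11.62 in placebo brains. Its change was -0.16 (SE 0.059, limma adjusted p = 0.0462), near the threshold. Gria1 passed in 6 of the 20 fits that left out 1 brain array and Gria4 in 12, while Gria2 and Gria3 passed in each of the 20.

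All 5 kainate receptor genes had negative changes and 2 fell. Grik1, which encodes the GluK1 subunit, lay at 6.74, 7.07 and 7.37 in haloperidol brains, against 7.24, 7.34 and 7.62 in placebo brains. Of the 10 haloperidol arrays, 8 lay below every placebo array, and the change was -0.29 (SE 0.07, limma adjusted p = 0.00587). Grik2, the gene of the widespread GluK2 subunit, lay at 9.88, 10.24 and 10.46 in haloperidol brains, against 10.31, 10.44 and 10.71 in placebo brains. 6 haloperidol arrays lay below every placebo array, and the change was -0.21 (SE 0.071, limma adjusted p = 0.0308).

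The other 3 kainate receptor genes did not pass. Grik4 and Grik5 encode high-affinity subunits that need a partner subunit to form a channel. Grik4 lay at 8.56, 8.75 and 9.08 in haloperidol brains, against 8.83, 8.93 and 9.10 in placebo brains, a change of -0.17 (SE 0.065, limma adjusted p = 0.0566), and Grik5 was at -0.18 (limma adjusted p = 0.0882). Grik3, a subunit of low agonist sensitivity, was at -0.27 with a wide 95% interval of -0.51 to -0.02 (limma adjusted p = 0.0852).

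NMDA receptor genes held the largest change of the 34, and 3 of 5 fell. Grin2c, the subunit gene of mature cerebellar granule cells, lay at 8.06, 8.44 and 8.88 in haloperidol brains, against 8.44, 8.80 and 9.29 in placebo brains. The groups overlapped, with 5 haloperidol arrays below every placebo array and 9 below the placebo mean. It fell by 25.1% when the log2 change of -0.42 (SE 0.12, limma adjusted p = 0.0114) is read as a ratio.

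The main GluN2 subunits of the forebrain fell too. Grin2a, which dominates in adult forebrain, lay at 9.81, 10.09 and 10.60 in haloperidol brains, against 10.26, 10.42 and 10.60 in placebo brains, a change of -0.27 (SE 0.083, limma adjusted p = 0.0178). Grin2b, which dominates early in life and remains in adult forebrain, lay at 10.03, 10.55 and 10.95 in haloperidol brains, against 10.49, 10.86 and 11.22 in placebo brains, a change of -0.29 (SE 0.098, limma adjusted p = 0.0303). In both genes the groups overlapped, 9 haloperidol arrays lay below the placebo mean, and 4N was the lowest haloperidol array. At least 9 of 10 haloperidol arrays lay below the placebo mean in 10 of the 34 genes and in 16.5% of all genes tested. Grin3a, which lowers calcium flow through the receptor, lay at 8.36, 8.61 and 9.09 in haloperidol brains, against 8.45, 8.61 and 8.77 in placebo brains, a change of 0.021 (SE 0.076, limma adjusted p = 0.848), and the haloperidol arrays reached past the placebo arrays at both ends. Grin2d, a subunit of brainstem and interneurons, was at -0.11 and did not pass (limma adjusted p = 0.431).

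The single delta receptor gene listed, Grid1, encodes a protein that organises synapses through cerebellins and neurexins. It lay at 9.00, 9.25 and 9.65 in haloperidol brains, against 9.34, 9.48 and 9.66 in placebo brains. The change did not pass, at -0.18 (SE 0.079, limma adjusted p = 0.0927), although 7 of 10 haloperidol arrays lay below every placebo array and the other 3 lay within the placebo range.

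Of the 6 metabotropic receptor genes 3 fell, 1 of group I and 2 of group III. Grm7, a presynaptic receptor gene of group III, had the smallest p of the 34. It lay at 9.36, 9.57 and 9.76 in haloperidol brains, against 9.65, 9.87 and 10.11 in placebo brains, and all 10 haloperidol arrays lay below the placebo mean. Its change was -0.28 (SE 0.063, limma adjusted p = 0.00511). Grm5, the group I receptor gene whose protein raises calcium and binds Homer, lay at 10.35, 10.61 and 10.93 in haloperidol brains, against 10.77, 10.88 and 11.21 in placebo brains. 7 haloperidol arrays lay below every placebo array, and the change was -0.26 (SE 0.076, limma adjusted p = 0.0144).

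Grm4, a group III receptor gene with high levels in cerebellum, lay at 9.11, 9.56 and 10.15 in haloperidol brains, against 9.60, 9.89 and 10.25 in placebo brains, with 5 haloperidol arrays below every placebo array and a change of -0.31 (SE 0.11, limma adjusted p = 0.0444). Grm3, a group II gene that astrocytes express too, lay at 10.52, 10.74 and 10.87 in haloperidol brains, against 10.49, 10.74 and 10.86 in placebo brains. These groups covered the same range, and the change of -0.00473 (SE 0.053, limma adjusted p = 0.953) had a 95% interval of -0.11 to 0.10. Grm2, also of group II, was at -0.25 (limma adjusted p = 0.0952) and Grm8, of group III, at -0.12 (limma adjusted p = 0.259).

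**Figure D3:**
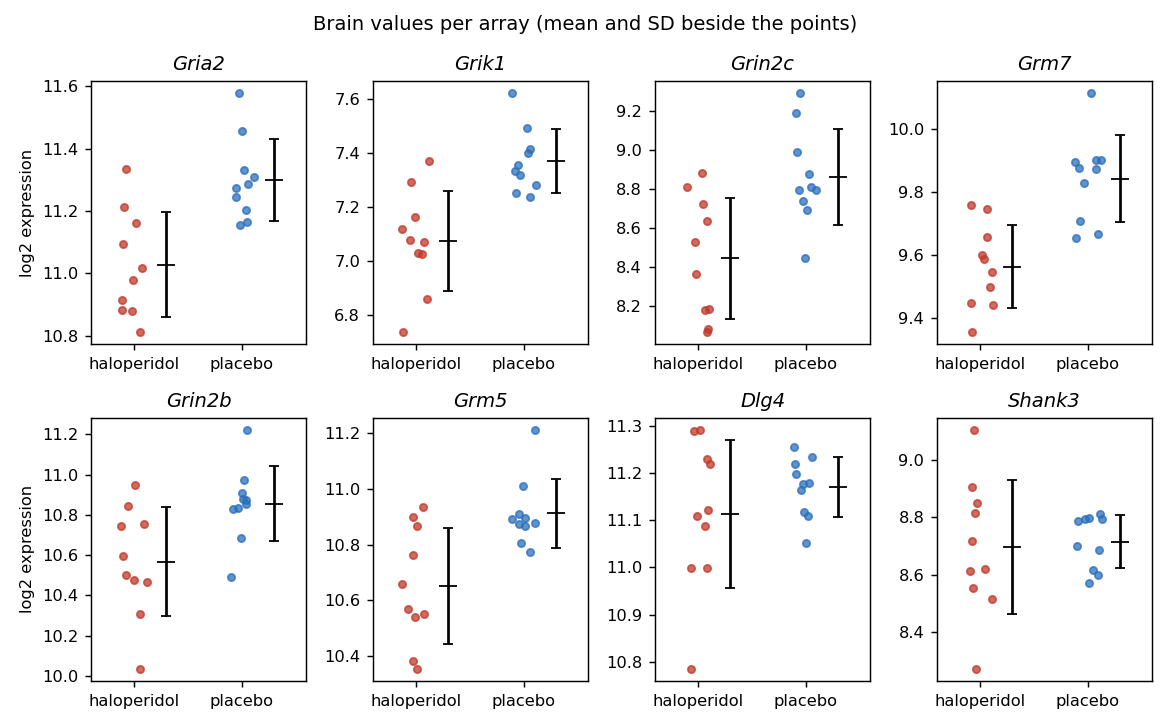
Log2 expression of 8 genes in each brain array, haloperidol on the left and placebo on the right of each panel, with the mean and SD beside the points (n = 10 each); each panel has its own vertical scale. In Gria2, Grik1, Grin2c and Grm7 5 to 8 of the 10 haloperidol arrays lie below every placebo array, while Dlg4 and Shank3 overlap widely and spread more in the haloperidol group.

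Among the scaffolds, Dlg2 and Dlgap1 fell. Dlg2, which encodes PSD-93, a scaffold that binds NMDA receptor tails, lay at 10.81, 10.99 and 11.08 in haloperidol brains, against 10.96, 11.09 and 11.25 in placebo brains. All 10 haloperidol arrays lay below the placebo mean, and the change was -0.14 (SE 0.047, limma adjusted p = 0.0323). Dlgap1, which encodes a linker between Dlg and Shank, lay at 8.59, 9.07 and 9.49 in haloperidol brains, against 9.10, 9.29 and 9.72 in placebo brains, with overlap and a change of -0.26 (SE 0.095, limma adjusted p = 0.0436). A second probe with this gene's name, the brighter of the 2 in brain, was at -0.065 (limma adjusted p = 0.388). The call on Dlgap1 therefore rests on the choice of probe. Dlgap2, a relative of Dlgap1, lay at 8.60, 9.07 and 9.47 in haloperidol brains, against 8.94, 9.19 and 10.02 in placebo brains. Its change of -0.26 (SE 0.12, limma adjusted p = 0.0874) did not pass, and placebo 1L was far above the other placebo arrays.

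The core of the scaffold did not pass. Dlg4, which encodes PSD-95, the best known postsynaptic scaffold, lay at 10.78, 11.11 and 11.29 in haloperidol brains, against 11.05, 11.18 and 11.26 in placebo brains. The haloperidol arrays spread past the placebo arrays at both ends, and the change of -0.058 (SE 0.058, limma adjusted p = 0.457) had a 95% interval of -0.18 to 0.06. Dlgap3, which had the highest change of the 34, lay at 8.75, 9.22 and 9.70 in haloperidol brains, against 9.00, 9.22 and 9.34 in placebo brains, again with the wider spread under haloperidol, and was at 0.03 (SE 0.088, limma adjusted p = 0.808). The genes of the deeper layer, Shank1, Shank2 and Shank3, were at -0.054, -0.17 and -0.019. Homer1, which also gives a short activity-induced form that uncouples receptors, was at -0.10, and Homer2 at -0.034. A second Homer2 probe, the brighter of the 2 in brain, was at -0.14 and did not pass either (limma adjusted p = 0.289). Dlg1, Dlg3 and Dlgap4 were at -0.07, -0.038 and -0.056.

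Genes that work with these receptors were counted from 3 further lists, to be read against the 15.2% of all genes tested that fell and the 15.2% that rose. Of 15 auxiliary subunits of AMPA and kainate receptors 4 fell and 1 rose, with a median of -0.12. Frrs1l, needed for AMPA receptor assembly, changed by -0.29 (limma adjusted p = 0.0197) and the kainate receptor partner Neto2 by -0.19 (limma adjusted p = 0.0334), while Cnih2, an AMPA receptor export factor, changed by 0.16 (limma adjusted p = 0.0291). Of 23 other postsynaptic partners 2 fell and 0 rose, with a median of -0.11. These were Kalrn, which acts in dendritic spines, at -0.28 (limma adjusted p = 0.0326) and the adhesion gene Nlgn3 at -0.21 (limma adjusted p = 0.0475), and the adhesion gene Lrrtm3, next in order of p, was at -0.14 (limma adjusted p = 0.072). Of 9 genes of glutamate transport and metabolism 2 fell and 0 rose, with a median of 0.04. The neuronal uptake carrier Slc1a1 was at -0.27 (limma adjusted p = 0.0351), the vesicular transporter Slc17a7 at -0.20 (limma adjusted p = 0.0425), and glutamate dehydrogenase, Glud1, at 0.18 (limma adjusted p = 0.0899) without passing. With each array's median subtracted, 0 genes of these 3 lists were lower and 1, 3 and 3 were higher, where 32.6% of all genes tested were higher.

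The median over all probes of an array was lower in haloperidol brains, while the genes tested did not shift together. The median gene tested was at -0.02, and at 0.0029 without the filter on dim genes. Of the 35556 probes, 12457 carried no gene symbol. The median over all probes was 6.19 ± 0.072 in haloperidol brains and 6.33 ± 0.044 in placebo brains (SD, n = 10 each), a difference of -0.14. Subtracting each array's median raised every brain change by that amount, and 1 of the 34 genes, Grin2c, then passed as lower (-0.28, limma adjusted p = 0.0433) and 0 as higher. After the subtraction 36.3% of all genes tested passed, 3.72% lower and 32.6% higher, and the median gene tested lay at 0.12. The median over the 34 genes was then -0.03, and Grm7, Grik1 and Gria2 were at -0.14, -0.16 and -0.14 (limma adjusted p = 0.0625, 0.0520 and 0.0836). Dlg2 was at 0.00072. By construction the subtraction leaves the place of the 34 genes relative to the median gene, -0.15, as it was. With the array median as a covariate 0 of the 34 genes and 0 of all genes passed in limma, with 0 of the 34 and 550 of all at an unadjusted p under 0.05. With principal component 1 of the tested genes as a covariate, 0 and 0 passed in limma, with 5 and 913 at an unadjusted p under 0.05. The median of the 34 genes relative to the median gene was then 0.013 and 0.060 under the 2 covariates, in place of -0.15. Array median and treatment are partly confounded, since 9 of 10 haloperidol arrays lie below every placebo array in it.

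**Figure D4:**
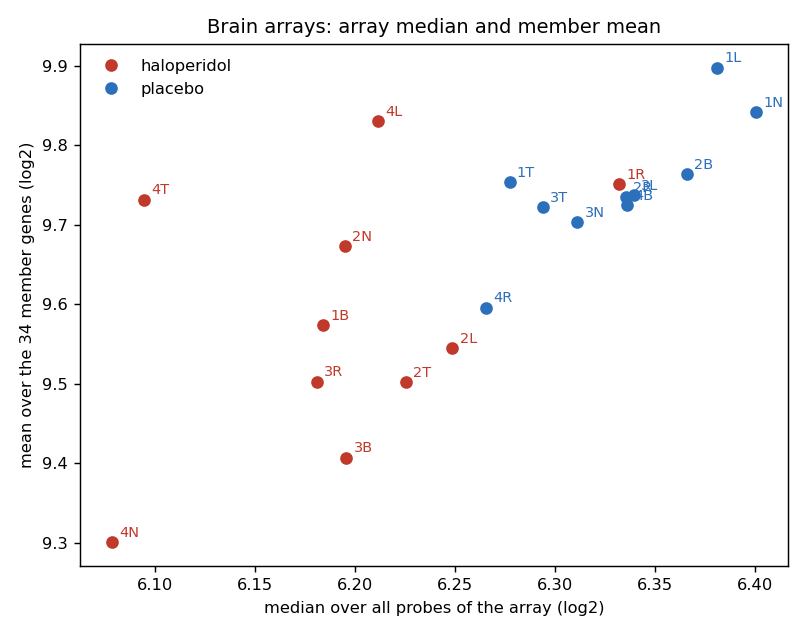
Each point is a brain array, labelled with the tag from its sample title. The horizontal axis is the median over all probes (log2) and the vertical axis the mean over the 34 genes (log2). Haloperidol arrays range from 9.30 (4N) to 9.83 (4L) on the vertical axis and placebo arrays from 9.60 (4R) to 9.90 (1L), and 9 of the 10 haloperidol arrays have a lower array median than every placebo array.

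A few arrays set the ends of the ranges. The mean over the 34 genes was 9.58 ± 0.16 in haloperidol arrays and 9.75 ± 0.080 in placebo arrays. Haloperidol 4N was the lowest haloperidol array in 19 of the 34 genes and 4L the highest in 15, while placebo 4R was the lowest placebo array in 21 and 1L the highest in 20. Haloperidol 4T also stood apart through liver transcripts, with the albumin gene Alb at 11.11 against 3.93 to 4.51 on the other brain arrays. With 4N, 4T and 1L left out, 8 of the 34 genes fell, and 10.6% of all genes tested. These were Gria2, Gria3, Grik1, Grin2a, Grin2c, Grm5 and Grm7, which also passed in each of the 20 fits that left out 1 array, and Grik4. Across those 20 fits the count ran from 8 to 19, while 10.9% to 19.9% of all genes tested fell, with 8 without placebo 1N, placebo 2B or haloperidol 4N and 9 without haloperidol 1B, 3B or 3R.

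The tags of the arrays hold a digit and a letter whose meaning the labels do not give. Within each of the 4 digits the 14 genes that fell had negative changes, and in 8 of the 14 the change was smallest in size within digit 4. These genes were picked as lower over the same brain arrays, so their signs within digits are not independent replication. The share of all genes tested that was negative within all 4 digits was not counted. Gria2 was at -0.29, -0.28, -0.33 and -0.17 within digits 1 to 4, Grin2b at -0.29, -0.30, -0.47 and -0.014, and Grin2c at -0.34, -0.47, -0.56 and -0.46. Among the other 20 genes, 4 were negative within all 4 digits.

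Microglia markers rose beside these changes. The counts are to be read against all genes tested, of which 15.2% fell, 15.2% rose and 32.6% were higher with the array median subtracted. Of 9 general neuronal markers 0 passed, and 3 were higher with the array median subtracted, near that share. Of 10 microglia markers 6 rose, and 8 were higher with the subtraction, with a mean level of 7.69 to 8.37 in haloperidol arrays and 7.35 to 7.94 in placebo arrays. Of 8 markers of cerebellar granule cells, all had negative changes, where 54.0% of all genes tested did, with a median of -0.26, and 0 passed. Their mean level lay between 8.96 and 10.29 in haloperidol arrays and between 8.84 and 10.33 in placebo arrays, lowest in haloperidol 1B and 4N and in placebo 1L. For the cerebellar receptor genes Grin2c and Grm4, too, 1B and 4N were the lowest haloperidol arrays and 1L the lowest placebo array. Without haloperidol 1B and placebo 1L, Grin2c was at -0.42 (limma adjusted p = 0.0192) and Grm4 at -0.29 (limma adjusted p = 0.0625), and 7 of the 34 genes fell, with 10.8% of all genes tested. Of 7 markers of hippocampus and cortex, 6 of striatal projection neurons, 3 of pituitary and 3 of hepatocytes 0 passed. Of 8 astrocyte, 7 oligodendrocyte and 7 endothelial markers 1 each rose, S100b, Opalin and Emcn, and the only blood marker tested, Alas2, changed by 0.85. The part of cell composition in the receptor changes was not tested.

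Receptor and scaffold genes are long, and the median change of all genes was lower in each longer class of genomic span. The median genomic span was 232 kb for the 34 genes and 25.2 kb for the 12532 genes tested that had a span. Across those genes span and change had a Spearman correlation of -0.27, and across the 34 genes of -0.30. These are descriptions across genes measured on the same arrays, and genes are not independent replicates. Of the 15 members over 300 kb, 10 fell and the median was -0.21, against a median of -0.11 and 24% lower among all 488 genes of that span. Of the 9 members between 100 and 300 kb, 2 fell and the median was -0.07, against -0.09 and 22.8% lower among all 1509. Of the 7 members between 30 and 100 kb, 1 fell and the median was -0.05, against -0.06 and 18.5% lower among all 3575. The 3 members between 10 and 30 kb, Grm2, Grin2c and Dlg4, were at -0.25, -0.42 and -0.058. Of these 1 fell, against 12.1% lower among all 3889 genes of that span.

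**Figure D5:**
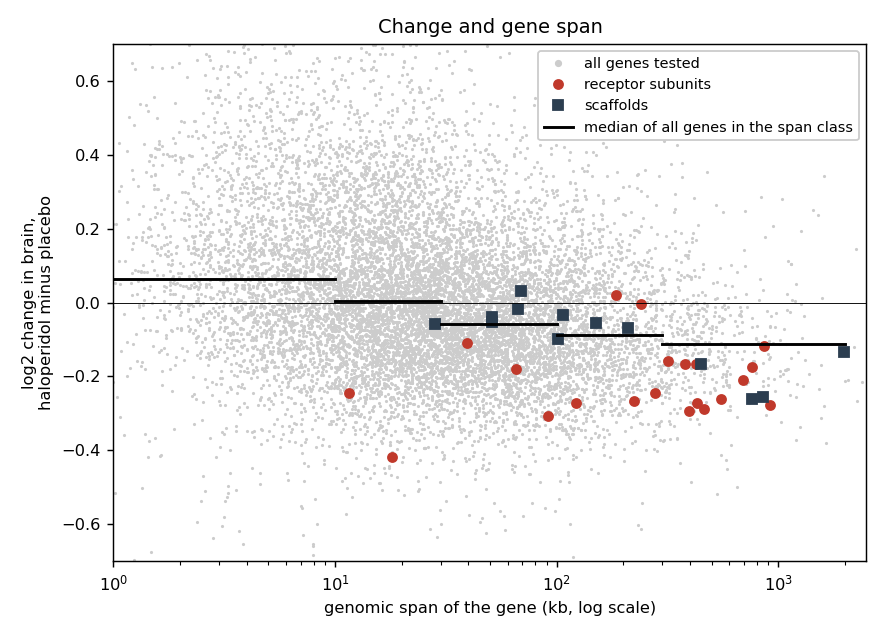
Log2 change in brain, haloperidol minus placebo (vertical axis, shown from -0.7 to 0.7), against the genomic span of the gene in kb (horizontal axis, log scale). Grey points are genes tested, with 158 outside the vertical and 265 outside the horizontal range, circles are the 21 receptor subunits, squares the 13 scaffolds, and black lines the median of all genes in a span class, which goes from 0.06 under 10 kb to -0.11 over 300 kb.

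In liver many of these genes were too dim to test. Of the 34, 16 lay below the level under which genes were left out, 3.92, among them Gria1, Gria2, Gria4 and Grm7. Gria2 averaged 2.30 ± 0.17 with haloperidol and 2.34 ± 0.076 with placebo (SD, n = 9 per group). The scaffold gene Dlg1 averaged 9.06 ± 0.15 with haloperidol and 8.94 ± 0.13 with placebo, and Homer2 7.85 ± 0.13 with haloperidol and 7.98 ± 0.22 with placebo, so both were well above that level. Of the 18 genes tested 0 passed in limma, where 0.0% of all 12547 liver genes passed. An unadjusted p under 0.05 was found in 0 of the 18 and in 1316 of all. The median change was 0.08 over the 18, against -0.02 over all liver genes. The liver array median ran the other way from brain, with 4.89 ± 0.090 in haloperidol and 4.80 ± 0.082 in placebo livers.

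The liver effect minus the brain effect was tested for the 18 genes above the limit for dim genes in both tissues. It passed for Gria3, at 0.64 (SE 0.21, limma adjusted p = 0.0256), and Shank2, at 0.52 (SE 0.20, limma adjusted p = 0.0494), both higher in liver, where 9.16% of all 10869 genes tested were higher and 23.0% differed either way. Brain and liver arrays share tags, and with the tag as a block Gria3 passed (limma adjusted p = 0.0293) and Shank2 did not (0.0543). Without the filter on dim genes Shank2 did not pass either (limma adjusted p = 0.0727). Gria3 then passed, as did Grik2, at 0.31, and Grm7, at 0.30 (limma adjusted p = 0.0386, 0.0416 and 0.0363). Grik2 and Grm7 were not among the 18, being too dim in liver. Of all 18820 genes 2297 passed without the filter, 905 of them higher. Gria3 in liver averaged 4.59 ± 0.45 with haloperidol and 4.19 ± 0.50 with placebo, a change of 0.40 that did not pass by itself. These levels lay above the limit of 3.92 but below the mean liver array medians of 4.89 and 4.80. With the array median subtracted in each tissue neither gene passed and Homer2 was lower, at -0.32 (limma adjusted p = 0.0439), where 40.0% of all genes passed, 37.5% lower and 2.5% higher. With the brains of 4N, 4T and 1L left out 0 of the 18 passed in limma, and 1568 of all 10869 genes. An unadjusted p under 0.05 was found in 2 of the 18 and in 3314 of all.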

How the data were processed

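RNA of whole brain and liver was hybridised to Affymetrix arrays, 1 array per sample. The deposited log2 values are RMA values: per the submitters' processing notes the authors used RMA and the software Affymetrix Expression Console, whose versions were not found in the sources at hand. RMA puts arrays on a common scale, so a change in total RNA is not measured. Of 35556 probes, 21218 carried 1 gene symbol in GEO's platform annotation, 1881 several and 12457 none. Per gene the probe of highest mean over all arrays was used, and the dimmest 33.3% of genes per tissue were left out (below 5.52 in brain, 3.92 in liver).

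Haloperidol was compared with placebo in limma 3.58.1 (R 4.3.3), two-sided, with Benjamini-Hochberg adjustment over all genes tested and a threshold of 0.05. The script was tested on simulated data. No pair of arrays within a group was identical. The members, lists and alternatives were chosen with earlier results of these data known. Full statistics were given, per subfamily, to up to 3 genes of smallest p, the gene of highest brain mean, the gene of largest positive change and any gene that passed with the array median subtracted. Of each related list up to 3 genes of smallest p were named. Alternatives covered the filter, normalization, tag digit, tag letter or whole tag as a block, variance model, weights, probe choice, covariates and arrays left out. 3 of them, each leaving out named arrays, were added after seeing the data.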

Additional observations from a re-analysis of the deposited data

Results flagged for a closer look

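In 104 sets of 9 or 10 arrays of 1 gene, 1 array lay far from the rest of its group in 9, where chance gives about 1 in 20. In haloperidol arrays these were Shank1 in brain 4N at 9.96 (median of the others 10.57) and Grin2d in liver 4L at 4.50 (4.06). In placebo brains Grik3 and Dlgap2 were high in 1L, at 10.37 (9.77) and 10.02 (9.18), Grm2 and Dlgap3 were low in 4R, at 8.50 (9.12) and 9.00 (9.23), and Grm3 was low in 1N at 10.49 (10.75). In placebo livers Grm2 was low in 3N at 3.66 (4.39) and Grm5 high in 1N at 4.53 (4.05). Of these genes Grm5 alone passed in brain.

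The treatment effect differed between tissues for Gria3, whose liver change minus brain change was 0.64, and Shank2, at 0.52 (limma adjusted p = 0.0256 and 0.0494). Of all 10869 genes tested 23.0% differed either way and 9.16% were higher in liver. With the shared tag as a block Shank2 did not pass (limma adjusted p = 0.0543). Neither gene passed with the array median subtracted or without the brains of 4N, 4T and 1L (Gria3, limma adjusted p = 0.0897 and 0.0658).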

How the results depend on the processing

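The count of lower genes among the 34 in brain, 14, was 9 with no filter on dim genes, 1 with the array median subtracted, 7 with all 38 arrays in 1 fit, 7 by the Wilcoxon rank sum test, 8 when 4N, 4T and 1L were left out, and 0 with either the array median or component 1 as covariate. It was 7 without haloperidol 1B and placebo 1L and 1 with the median subtracted and 4N, 4T and 1L left out, both chosen after seeing the data. With the tag digit as a replicate block it was 13, and with the tag letter as a block 9; the labels do not say what the numbers pair. Among the 34 the count was 15 with quantile normalization of the brain arrays and 10 with cyclic loess between them. Of all genes tested 2242 and 1772 fell under these 2 settings. Leaving out 1 array gave 8 to 19 of the 34, with 10.9% to 19.9% of all genes lower. The settings not named gave 13 to 17 of the 34. The median change, -0.17, was -0.0305 with the array median subtracted, -0.0243 with it as covariate and 0.0582 with component 1. Both covariates are partly confounded with treatment. Of the 14 genes 7 changed sign in some setting: Dlg2 to 0.0007 with the median subtracted, Grik2 to 0.0190 and Dlgap1 to 0.0861 with it as covariate, and with component 1 Gria1 to 0.0202, Grin2a to 0.0398, Grin2b to 0.0767, Grm4 to 0.0226 and Dlgap1 to 0.0954. Of the 18 genes compared between tissues, 2 passed. With the array median subtracted 1 passed, Homer2 as lower, and neither Gria3 nor Shank2 did. With the shared tag as a block 1 passed, Gria3, without the 3 brains 0, and with array weights 4. Of all 10869 genes 4345, 2364, 1568 and 2954 passed under these settings. Without the filter on dim genes 3 of the 34 passed, and 2297 of all 18820. Each of the 20 genes that did not pass turned sign under some setting. Only 7 of them did so under a setting other than those with the array median or component 1. Of the 20, 6 passed under some setting. The cause of these changes was not tested.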
